A study of Mus musculus with 21 samples.

Results

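The genes described here are 32 members of glycolysis and of the cell's response to low oxygen, chosen by name. They were 32 of the 18079 genes kept in a table that compares genotypes and 30 of the 13297 genes in a table that compares injections, where Egln3 and Adm were not analysed. By role, 17 are enzymes of glycolysis and of lactate formation, 2 are regulators of phosphofructokinase, 4 are transporters of glucose or lactate, and 9 belong to the hypoxia response. The rule uses gene names alone, and it was proposed with earlier results of these data known.

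All 21 libraries came from microglia, the resident macrophages of the brain, of mice aged 12 to 18 weeks. The genotype table holds 7 libraries of uninjected female wild-type C57BL/6 mice, numbered 1 to 4 and 6 to 8, and 4 libraries of uninjected females of the ApoE knockout line B6.129P2-Apoetm1Unc/J, made by gene targeting. Apoe encodes apolipoprotein E, the lipid carrier that astrocytes and microglia secrete. The injection table holds 10 libraries of males of the same knockout strain, of which 5 received recombinant APOE protein (rAPOE) dissolved in phosphate-buffered saline (PBS) and 5 received PBS. Both injected groups therefore lack a working Apoe gene, and the saline group is the control. The injection went into the left side of the brain, tissue was taken after 16 h from both sides, and the labels do not tell which side a library represents. Nothing in the labels says that the libraries of a group came from separate animals, so the p-values below measure only the spread between these libraries, which may be technical.

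Each value is a normalised count, the number of 3′ tags of a gene divided by a factor for the library. Tags of this kind come from the end of polyadenylated transcripts, whatever the length of the transcript. Without molecular identifiers, copies of 1 tag cannot be told from separate transcripts. Differences are on the scale of log2(normalised count + 1), where low genes appear to change less than they do, and each has a standard error (SE). The test was limma, applied where the mean of a gene over its table reached 10, and the threshold for passing was an adjusted p (Benjamini-Hochberg, over all genes tested) under 0.05. Of the members, 29 were tested in the genotype table and 24 in the injection table.

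Glycolysis splits glucose into pyruvate in the cytosol and yields ATP without oxygen, and lactate dehydrogenase turns pyruvate into lactate, which leaves the cell through monocarboxylate transporters. Under low oxygen the transcription factor subunit HIF-1α escapes hydroxylation by the EGLN enzymes and induces many of the genes of glycolysis, together with genes of blood vessel growth, mitophagy and collagen modification. In microglia and other macrophages the same programme is also known to accompany inflammatory activation.

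HIF dimers bind a short core, searched here as ACGTG or GCGTG on both strands, whose reverse complements read CACGT and CACGC. The window was the 250 bases before each RefSeq gene start (GRCm38.p6), and 31 of the 32 members had an entry, Slc2a3 being the exception. The core occurred in 27 of these 31 members (87.1%), against 41.5% of 27025 genes with a promoter entry, and Eno2, Gpi1, Tpi1 and Mif held none. Per window of that length, 34 of 44 member windows held it (77.3%), against 38.6% of 32851. A match describes letters only and is no evidence of binding. The background genes were not matched to the members for base composition or gene type, so nothing is read from these contrasts. The stretches below, credited to RefSeq, lie outside all annotated genes and are shown because they belong to members that passed the test in the genotype comparison with all libraries (Hk2, Slc16a1) or without wild-type library 8 (P4ha1, Egln3). They run 5′ to 3′ on the gene's strand, and capitals mark the core. Pgam1, which passed without library 8, also had a stretch outside all annotated genes, which is not shown. The Hk2 stretch is chr6:82774474-82774533 (minus strand), the P4ha1 stretch chr10:59323236-59323295 (plus strand), the Slc16a1 stretch chr3:104638503-104638562 (plus strand) and the Egln3 stretch chr12:54204065-54204124 (minus strand).
Hk2: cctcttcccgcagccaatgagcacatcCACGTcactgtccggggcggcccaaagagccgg
P4ha1: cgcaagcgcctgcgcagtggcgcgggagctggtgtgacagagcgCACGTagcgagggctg
Slc16a1: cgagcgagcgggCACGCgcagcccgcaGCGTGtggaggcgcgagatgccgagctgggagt
Egln3: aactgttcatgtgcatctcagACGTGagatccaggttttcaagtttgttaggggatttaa
The core did not separate members by their test. It was present in the 1 member that rose, in 9 of the 10 members with an entry that fell (Eno2 lacked it), and in 14 of the 17 that did not pass.

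Libraries differed in ways beyond their labels. Wild-type libraries held 2016972 to 3054976 reads with 13592 to 15248 genes detected, and knockout libraries held 4247865 to 4969287 reads with 8117 to 10479 genes. Apoe itself, at chr7:19696109-19699188 (GRCm38), averaged 12573 ± 5263 (SD, n = 7) over the wild-type libraries and only 8.32 ± 10.9 (SD, n = 4) over the knockouts, a difference of -11.25 (SE 0.91, limma adjusted p = 1.58e-06), and the exact two-sided permutation test over 330 splits gave p = 0.00303. Microglial markers were present in every library, with a summed level of 50000 to 53413 in 6 wild-type libraries, 68801 in wild-type library 8 and 68443 to 80855 in the knockouts. The summed level of 13 choroid plexus and ependymal markers was 57919 to 84132 in those 6 libraries, 24028 in library 8 and 440.2 to 887 in the knockouts, of which 6 markers (Folr1, Sostdc1, Slc4a5, Cldn2, Foxj1 and Ccdc153) were at 0 in every knockout library. Of the microglial markers 6 of 10 rose, and of the 12 choroid plexus and ependymal markers tested all 12 fell. Over all genes tested 5.14% rose and 19.8% fell. Folr1, Cldn2, Foxj1, Kcnj13, Kl, Otx2 and Aqp1 reached the mean of 10 only through wild type, so nothing is read from the count of 12. Monocyte and macrophage markers summed to 5965 to 7487 in those 6 libraries, 444 in library 8 and 780 to 1070 in the knockouts, with 9 of 14 tested lower. Of these, Fn1, Ace, Itga4 and Lyz1 likewise reached the mean of 10 only through wild type. In these 3 sums library 8 lay between the groups, beside the knockouts or below both. Library 8 and all knockouts held no Y-linked reads, while the other 6 wild-type libraries held 11 to 36 although labelled female. In the injection table, PBS library 5 and rAPOE library 5 held no Y-linked reads and Xist at 979 and 718, although labelled male. Oligodendrocyte markers summed to 593 to 672 in the 6 libraries, 204 in library 8 and 92.5 to 282 in the knockouts, and erythroid markers to 2101 to 2937, 129.99 and 155 to 729. Neutrophil markers stood at 2085 to 2735, 179 and 1600 to 6232, and 0 of 7 tested passed with limma. Mitochondrial ribosomal RNA took 1.36% to 1.59% of the reads in the 6 libraries, 4.67% in library 8 and 0.647% to 0.886% in the knockouts, and 10.8% to 16.5% after PBS and 11.6% to 20.1% after rAPOE. The 10 most abundant genes took 26.1% to 30.4% in the 6 libraries, 52.0% in library 8 and 24.7% to 32.5% in the knockouts. The part of sex, of other cell types and of these RNA shares in the results below was not tested. Member counts and calls that change without these libraries are given with and without them.

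In the knockout libraries, enzymes and transporters at several steps of glycolysis were lower than in wild type, and hexokinase 2 was higher. Of the 29 members tested, 11 fell and 1 rose. The background was 19.8% of all 10401 genes tested for lower calls, 5.14% for higher calls and 25% for either. The 5 members Pfkp, Pfkm, Eno2, Slc2a3 and Vegfa passed the filter on low values only through the wild-type group, so that they had to differ, and Pgk1, Pgam1 and Adm were too low to be tested. Calls also followed the level of a gene, since 26% of all genes with a mean of 10 to 50 fell, as did 5 of 7 members there. Between 50 and 500 it was 15% of all genes and 4 of 18 members, and at 500 or more it was 12.9% of all genes and 2 of 4 members. Higher calls took 0.683%, 7.02% and 24.8% of all genes at these levels. Hk2, the member that rose, was 1 of 4 members at the highest level, so its background is 24.8%. The median difference over the tested members was -0.59, against -0.45 over all genes tested. Without library 8, 14 of 30 members fell and 2 rose (background 23% and 7.64%), and these medians were -0.98 and -0.47. Pgam1 then also passed the filter only through wild type. Because of the members that passed in this way, nothing is read from the members' counts of lower calls and medians, in all or by level.

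**Figure D1:**
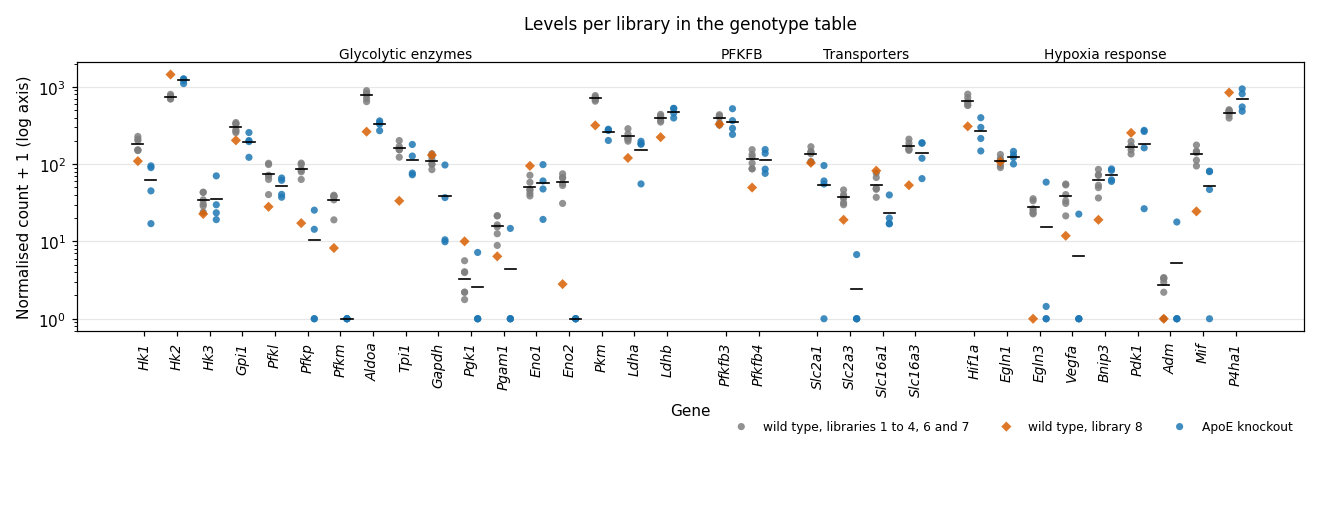
Normalised count plus 1 of each member (log axis) in every library of the genotype table, by role, with grey points for 6 wild-type libraries, orange diamonds for wild-type library 8, blue points for the 4 knockout libraries, and bars at the mean of the grey and of the blue points. Library 8 lies below the other wild-type libraries in 22 of the 32 members, and the knockout points of Hk1, Pfkm, Eno2, Pkm, Slc2a1 and Slc2a3 lie below all wild-type points.

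The first step of glycolysis is the phosphorylation of glucose by hexokinase. Hk2 (chr6:82725025-82774454, minus strand, GRCm38), the inducible isoform, was at 1256, 1099.9, 1213 and 1267 normalised counts in the knockout libraries and ranged from 692 to 1441 in wild type, with a median of 752. The highest wild-type value was that of library 8, above every knockout value, and the other 6 libraries ended at 797, below every knockout library. The mean went from 841 ± 267 (SD, n = 7) to 1209 ± 76.4 (SD, n = 4), a difference of 0.57 (SE 0.18, limma adjusted p = 0.0338). Without library 8 it was 0.71 (limma adjusted p = 1.08e-05). The call was lost when any of the other wild-type libraries, or knockout library 1, 3 or 4, was left out (limma adjusted p 0.0593 to 0.0741), and with quantile normalisation, edgeR and DESeq2 (adjusted p 0.0553, 0.0895 and 0.0631). Over every alternative tried the adjusted p of Hk2 ran from 1.08e-05 to 0.0895, with the difference above 0 in each.

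Hk1, the isoform that most tissues keep on constantly, moved the other way. Its knockout libraries stood at 89.1, 44.1, 15.99 and 94.0, and wild type ranged from 108 to 227 with a median of 152, so that the groups did not overlap. The mean of 171 ± 42.3 (SD, n = 7) in wild type fell to 60.8 ± 37.4 (SD, n = 4), a difference of -1.73 (SE 0.41, limma adjusted p = 0.00673). Hk3, a hexokinase of myeloid cells, was at 18.2, 69.5, 22.5 and 28.8 in the knockouts and between 21.7 and 42.4 in wild type, and the groups overlapped (-0.01, SE 0.47, limma adjusted p = 0.985).

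As a share of the reads of the 3 hexokinase genes, Hk2 made up 92.1%, 90.6%, 96.9% and 91.2% in the knockout libraries and 79.6% ± 6.10 (SD, n = 7) in wild type. Within wild type, library 8 stood at 91.7% (95% Wilson interval 89.7 to 93.4, 870 reads) and the other 6 at 72.7% to 80.7%. Library 8 was therefore inside the knockout range and the other 6 below it.

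Glucose 6-phosphate isomerase, Gpi1, makes fructose 6-phosphate. It measured 201, 255, 121 and 195 in the knockouts and 202 to 344 in wild type (median 278), with overlap (-0.59, SE 0.21, limma adjusted p = 0.0569). It passed without library 8 (-0.67, limma adjusted p = 0.0175) and without knockout library 2 (-0.74, 0.027), within a range of 0.0175 to 0.171 over the alternatives.

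Phosphofructokinase, the main control step of glycolysis, has 3 genes named for liver, platelet and muscle. Pfkm (chr15:98092589-98132451, plus strand), the muscle isoform, was at 0 in all 4 knockout libraries and between 7.22 (library 8) and 38.6 in wild type, with a median of 36.9. At 3 reads over the knockout group this is at least 84.4-fold lower than the wild-type mean of 29.9 ± 12.3 (SD, n = 7), and limma gave an adjusted p of 5.25e-05. Pfkp, the platelet isoform, was at 0, 13.4, 0 and 24.4 in the knockouts and between 16.2 and 102 in wild type (median 81.8). Library 8 was the lowest wild-type library and lay inside the knockout range. Its difference was -3.95 (SE 0.90, limma adjusted p = 0.00521), and edgeR did not call it (adjusted p = 0.0727, with a range of 0.00135 to 0.0727 over the alternatives).

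Pfkl, the liver isoform, did not pass: the knockouts held 60.7, 39.6, 36.3 and 65.2 and wild type ranged from 27.1 to 102, with overlap (-0.32, SE 0.40, limma adjusted p = 0.583). Pfkl accounted for 100%, 74.8%, 100% and 72.8% of the phosphofructokinase reads in the knockout libraries, and for 40.0% ± 9.80 (SD, n = 7) in wild type, where no library exceeded 53.6%. Library 8 gave that highest share from 28 reads (95% Wilson interval 35.8 to 70.5).

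Aldolase and triose phosphate isomerase handle the split of the 6-carbon sugar. Aldoa, the widespread aldolase, was at 269.6, 327, 343 and 361 in the knockouts and from 262 to 891 in wild type, with a median of 782. Only library 8 lay below the knockout values, and the other 6 wild-type libraries began at 642. The mean of 702 ± 211 (SD, n = 7) in wild type fell to 325 ± 39.7 (SD, n = 4), a difference of -1.03 (SE 0.28, limma adjusted p = 0.0136), and of -1.25 without library 8. Tpi1 was at 75.5, 179, 126 and 71.8 in the knockouts and from 32.5 to 201 in wild type, and did not pass (-0.26, SE 0.44, limma adjusted p = 0.696).

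Gapdh, the dehydrogenase that follows, was at 96.5, 8.91, 9.51 and 35.9 in the knockout libraries and between 83.9 and 135 in wild type (median 114). Knockout library 1 lay inside the wild-type range and the other 3 below it. The difference was -2.18 (SE 0.53, limma adjusted p = 0.00768), and neither edgeR (adjusted p = 0.0835) nor limma on the 8 libraries numbered 1 to 4 (0.0661) called it, with a range of 3.13e-04 to 0.0835 over the alternatives. The last 300 bases of Gapdh transcripts match those of 87 other annotated genes, 85 of them pseudogenes, at 97% identity or more over at least 75 bases. How tags shared among them were counted is not given in the sources used here, so the level of Gapdh is uncertain. The same holds to a lesser degree for Eno1 (4 other genes), for Ldha, Bnip3 and Mif (2 each), and for Gpi1, Aldoa, Tpi1, Pkm and Ldhb (1 each).

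Pgk1 and Pgam1 act next and were close to the detection limit. Pgk1 was at 0, 0, 0 and 6.21 in the knockouts and from 0.770 to 9.03 in wild type. Pgam1 was at 0, 0, 0 and 13.7 in the knockouts and from 5.42 to 20.5 in wild type. Neither reached the mean needed for a test.

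Enolase has a widespread gene, Eno1, and a neuronal one, Eno2. Eno2 (chr6:124760053-124769673, minus strand) was at 0 in all 4 knockout libraries, at 1.81 in library 8 and at 30.03 to 73.9 in the other 6 wild-type libraries. Against 3 reads over the knockout group it was at least 139-fold lower than the wild-type mean of 49.2 ± 25.2 (SD, n = 7), with a limma adjusted p of 4.42e-04. Eno1 was at 59.6, 18.3, 46.7 and 97.5 in the knockouts and between 37.8 and 93.9 in wild type, with overlap and no pass (-0.17, SE 0.44, limma adjusted p = 0.809). All enolase reads of the knockouts were Eno1 (41 to 220 reads a library), as were 98.1% of those of library 8 and 36.6% to 57.6% in the other wild-type libraries. Neuron markers moved with Eno2. The summed level of 12 such markers was 681 to 958 in the 6 wild-type libraries, 50.6 in library 8 and 0 to 60.5 in the knockouts, where Map2, Rbfox3, Nefl, Nefm, Slc17a7, Syn1 and Grin1 were at 0 throughout. Their part in the difference of Eno2 was not tested. In bulk RNA of this kind, fewer cells of a type and less RNA per cell cannot be told apart.

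Pkm (chr9:59656368-59679375, plus strand), the pyruvate kinase gene of most tissues, closes the pathway. It was at 273, 201, 282 and 273 in the knockout libraries, at 316 in library 8 and at 651 to 769 in the other 6 wild-type libraries. The groups did not overlap, and library 8 was nearer to the knockouts. The mean of 653 ± 153 (SD, n = 7) in wild type fell to 257 ± 37.6 (SD, n = 4), a difference of -1.30 (SE 0.22, limma adjusted p = 6.62e-04).

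Lactate dehydrogenase is built from an A subunit, which favours lactate formation, and a B subunit. Ldha was at 183, 196, 54.5 and 179.5 in the knockouts and from 119 to 286 in wild type (-0.59, SE 0.33, limma adjusted p = 0.219). Ldhb was at 394, 522, 526.01 and 457 in the knockouts and from 222 to 439 in wild type (0.37, SE 0.19, limma adjusted p = 0.160). Neither passed, and both overlapped between groups. Without library 8 the wild-type values of Ldha began at 197, just above the highest knockout library. Ldhb made up 68.2%, 72.7%, 90.6% and 71.8% of lactate dehydrogenase reads in the knockouts and 63.7% ± 4.09 (SD, n = 7) in wild type.

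**Figure D2:**
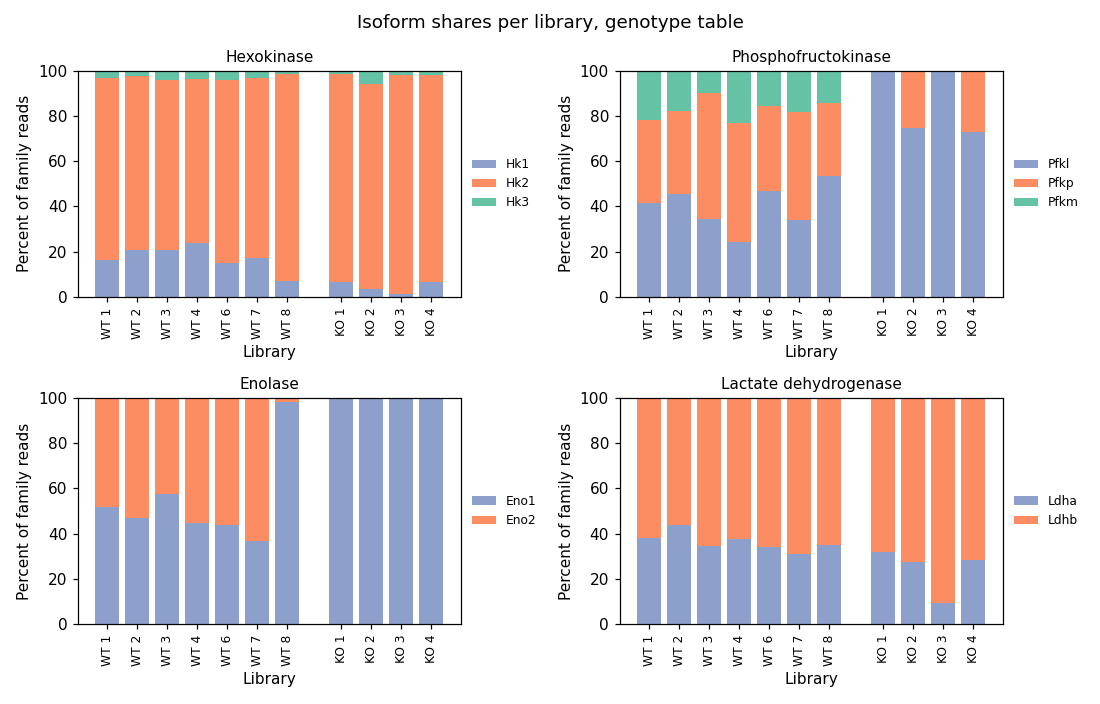
Percent of the reads of each enzyme family that fell to each of its genes, 1 bar per library of the genotype table (WT, wild type; KO, ApoE knockout). In the enolase panel, library 8 (98.1% Eno1) stands with the knockouts (100%), and in the hexokinase panel its Hk2 share (91.7%) lies inside the knockout range.

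Across the 15 enzymes tested, 7 fell, 1 rose and 7 did not pass, with a median difference of -0.59. The 7 were Hk1, Pfkp, Pfkm, Aldoa, Gapdh, Eno2 and Pkm. Without library 8, 9 of 16 fell and 1 rose, with a median of -0.98. The background was 19.8% of all genes tested for lower calls and 5.14% for higher calls. Without library 8 it was 23% and 7.64%. Pfkp, Pfkm and Eno2 passed the filter only through wild type, as did Pgam1 without library 8, so nothing is read from these counts and medians.

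The regulators Pfkfb3 and Pfkfb4 set the level of fructose 2,6-bisphosphate, the strongest activator of phosphofructokinase. Pfkfb3 was at 241, 364, 520.0 and 289 in the knockouts and from 319 to 435 in wild type (-0.15, SE 0.20, limma adjusted p = 0.597). Pfkfb4 was at 74.9, 85.05, 137 and 153 in the knockouts and from 48.7 to 153 in wild type (0.12, SE 0.33, limma adjusted p = 0.810). Both overlapped and neither passed.

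Glucose enters through the transporters GLUT1 (Slc2a1) and GLUT3 (Slc2a3). Slc2a3, the high-affinity transporter best known from neurons, was at 0, 0, 0 and 5.76 in the knockouts and from 18.1 to 45.3 in wild type, without overlap. Its mean of 33.4 ± 8.73 (SD, n = 7) in wild type fell to 1.44 ± 2.88 (SD, n = 4), a difference of -4.37 (SE 0.65, limma adjusted p = 2.13e-04). Slc2a1 did not overlap either, with 59.6, 54.3, 0 and 94.9 in the knockouts and 103 to 167 in wild type. It did not pass (-2.43, SE 0.92, limma adjusted p = 0.0692), and it passed without knockout library 3, which held the 0 (-0.90, limma adjusted p = 0.0195), without knockout library 4 (-3.10, 0.0337), with a pseudocount of 5 (-1.83, 0.0285) and with quantile normalisation (-1.58, 0.0352), with a range of 0.0195 to 0.297 over the alternatives.

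Lactate is carried by MCT1 (Slc16a1) and MCT4 (Slc16a3), of which MCT4 is the form of strongly glycolytic cells. Slc16a1 was at 15.9, 16.03, 38.9 and 19.1 in the knockouts and from 36.2 to 81.2 in wild type, with only knockout library 3 reaching into the wild-type range. The difference was -1.36 (SE 0.41, limma adjusted p = 0.0253). The call was lost without wild-type library 3 or 7 (limma adjusted p = 0.0584 and 0.0619), with quantile normalisation (0.0992), with edgeR (0.0521), and among the 8 libraries numbered 1 to 4 (0.166). The lowest adjusted p over the alternatives was 0.00485. Slc16a3 was at 118, 185, 64.0 and 188 in the knockouts and from 52.4 to 209 in wild type, and did not pass (-0.17, SE 0.38, limma adjusted p = 0.770). Of the 4 transporters, 2 fell and 2 did not pass, with a median of -1.89. The background for lower calls was 19.8% of all genes tested. Slc2a3 passed the filter only through wild type, so nothing is read from this count or median.

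Among the hypoxia genes, the subunit of the transcription factor itself fell. Hif1a (chr12:73901375-73947530, plus strand), which encodes HIF-1α, was at 297, 147, 398 and 214 in the knockouts, at 307 in library 8 and at 573 to 803 in the other 6 wild-type libraries. Library 8 lay inside the knockout range and the other 6 above it. The mean of 607 ± 156 (SD, n = 7) in wild type fell to 264 ± 108 (SD, n = 4), a difference of -1.24 (SE 0.28, limma adjusted p = 0.00458). Egln1, the main prolyl hydroxylase that marks HIF-1α for destruction, was at 99.3, 121, 145 and 130.3 in the knockouts and from 89.2 to 132 in wild type (0.19, SE 0.21, limma adjusted p = 0.534). Egln3, a hydroxylase that HIF itself induces, was at 0, 0, 57.5 and 0.443 in the knockouts, at 0 in library 8 and at 21.7 to 34.7 in the other wild-type libraries. It did not pass with all libraries (-2.49, SE 1.21, limma adjusted p = 0.152) and passed without library 8 (-3.17, 0.0324) or without knockout library 3 (-3.92, 0.0118), with a range of 0.0118 to 0.813 over the alternatives.

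Of the other hypoxia genes tested, Vegfa passed with all libraries. Vegfa, the vessel growth factor, was at 21.6, 0, 0 and 0 in the knockouts and from 10.8 (library 8) to 54.3 in wild type, with library 8 inside the knockout range. The difference was -3.86 (SE 0.87, limma adjusted p = 0.00486), and it was not called with quantile normalisation, edgeR or DESeq2 (adjusted p 0.128, 0.228 and 0.106, within a range of 1.17e-04 to 0.228 over the alternatives). P4ha1, a subunit of the collagen prolyl hydroxylase, was at 811, 548, 482 and 939 in the knockouts, at 841 in library 8 and at 393 to 505 in the other wild-type libraries. Its difference was 0.42 (SE 0.22, limma adjusted p = 0.190) with all libraries and 0.54 (limma adjusted p = 0.0324, within a range of 0.0324 to 0.439 over the alternatives) without library 8. Pdk1, which shuts pyruvate out of the mitochondrion, was at 263, 272.5, 25.5 and 161 in the knockouts and from 134 to 253 in wild type (-0.40, SE 0.50, limma adjusted p = 0.583).

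Bnip3, a receptor for mitophagy, was at 85.7, 81.9, 58.8 and 61.6 in the knockouts and from 18.1 to 84.5 in wild type (0.52, SE 0.41, limma adjusted p = 0.380). Mif, a cytokine that is also a HIF target, was at 46.0, 80.2, 0 and 78.9 in the knockouts and from 23.5 (library 8) to 175 in wild type (-2.15, SE 0.997, limma adjusted p = 0.134). Without library 8 its wild-type values began at 93.6, above every knockout library. Adm, the vasodilator peptide adrenomedullin, was at 0, 0, 0 and 16.8 in the knockouts and at 2.41 or less in wild type, too low to test. Of the 8 hypoxia genes tested, 2 fell and 6 did not pass, with a median of -0.82. Without library 8, 1 rose and 3 fell, with a median of -0.85. The background was 19.8% of all genes tested for lower calls and 5.14% for higher calls. Without library 8 it was 23% and 7.64%. Vegfa passed the filter only through wild type, so nothing is read from these counts and medians.

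**Figure D3:**
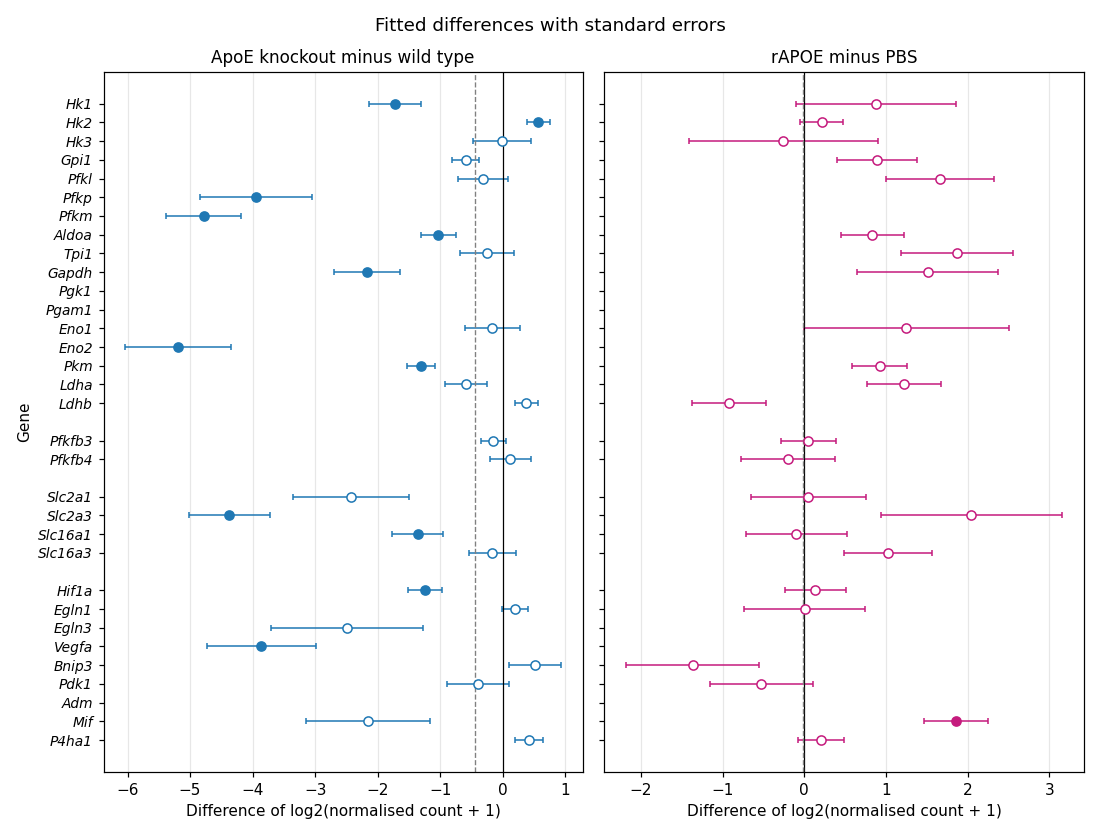
Fitted difference of log2(normalised count + 1) with its standard error for each tested member, knockout minus wild type (left) and rAPOE minus PBS (right), with filled points for members that passed and a dashed line at the median of all genes tested (-0.45 left, -0.01 right). On the left 11 filled points lie below 0 and 1, Hk2, lies above, and on the right Mif is the only filled point.

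In 6 of the 29 tested members every knockout library lay below every wild-type library (Hk1, Pfkm, Eno2, Pkm, Slc2a1 and Slc2a3), and in 0 every knockout library lay above. Over all genes tested such separation held for 10.6% downwards and 3.67% upwards. Pfkm, Eno2 and Slc2a3 had passed the filter only through wild type, so nothing is read from the members' count. Without library 8 the count was 11 of 30 below, with Pfkp, Aldoa, Ldha, Hif1a and Mif added, and 1 above (Hk2), against 18.1% and 5.89% of all genes. Pfkp too had passed the filter only through wild type, so nothing is read from this count either. Library 8 lay below the other 6 wild-type libraries in 22 of the 32 members and above them in 6. Among the 11 members that fell, it lay below the others in 9, above them in Slc16a1 and among them in Gapdh. Each of these 11 still passed without library 8, with differences from -5.81 (Eno2) to -1.25 (Aldoa). Gpi1, Egln3 and Pgam1 joined them there, Pgam1 because its mean then reached the filter, only through wild type. Over all genes, the counts without library 8 were 791 higher and 2378 lower of 10352. Quantile normalisation moved the median of all genes from -0.45 to 0.09 and the split of calls from 535 higher and 2061 lower to 920 higher and 1027 lower, and under it 10 members fell and 0 rose.

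Genes of the same pathways outside the 32 were taken from 4 further lists. Among other glycolysis genes 14 were tested, of which 1 rose and 4 fell with limma, and edgeR and DESeq2 called 2 each. The limma background was 5.14% of all genes tested for higher calls and 19.8% for lower calls. Tigar and Slc16a7 passed the filter only through wild type and so had to differ, as did Car12, Bhlhe40, Ak4, Epas1 and Ero1l of the hypoxia list and Pcx, so that the counts of these lists support nothing. Slc2a5, the fructose transporter that marks microglia, rose from 1024 ± 153 (SD, n = 7) to 1473 ± 80.1 (SD, n = 4), a difference of 0.54 (SE 0.13, limma adjusted p = 0.00729). At a mean of 500 or more, 24.8% of all genes tested rose. Bsg, the chaperone of MCT1 and MCT4, fell from 1745 ± 333 to 819.9 ± 67.5, a difference of -1.06 (SE 0.17, limma adjusted p = 3.18e-04). Tigar, a phosphatase that lowers fructose 2,6-bisphosphate, and Aldoc, the aldolase of astrocytes, fell, with differences of -3.73 and -3.62 (SE 0.82 and 0.91, limma adjusted p = 0.00420 and 0.00946). The other that fell was Slc16a7, which encodes the transporter MCT2 (-3.24, SE 0.84, limma adjusted p = 0.0112). Tigar and Slc16a7 were not called with quantile normalisation, edgeR or DESeq2, nor was Aldoc with edgeR. The summed level of 11 astrocyte markers moved with Aldoc, being 3433 to 3775 in the 6 wild-type libraries, 1916 in library 8 and 688 to 1104 in the knockouts, with Gfap and Aldh1l1 at 0 in every knockout library. The part of these cells in the fall of Aldoc was not tested.

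Of 27 other hypoxia response genes tested, 3 rose and 6 fell, and without library 8 it was 6 and 7. Over all genes tested 5.14% rose and 19.8% fell, and without library 8 it was 7.64% and 23%. In this list edgeR called 7 and DESeq2 8. Car12, a carbonic anhydrase, was at 0 in every knockout library and at 195 ± 74.3 (SD, n = 7) in wild type, at least 551-fold lower at 3 reads over the group (limma adjusted p = 3.27e-07). In library 8 it was at 56.0. Choroid plexus and ependymal markers summed to 57919 to 84132 in the 6 wild-type libraries, 24028 in library 8 and 440.2 to 887 in the knockouts. The part of these cells in the difference of Car12 was not tested. The transcriptional repressor Bhlhe40 was likewise at 0 in every knockout library against 95.9 ± 32.5 (SD, n = 7), at least 271-fold lower (limma adjusted p = 1.58e-06). Ak4, a mitochondrial adenylate kinase, was at 0 there and in library 8 against a mean of 22.1 ± 13.1 (SD, n = 7), at least 62.3-fold lower (limma adjusted p = 0.00441), and it was not called with quantile normalisation (adjusted p 1.41e-07 to 0.266 over the alternatives). Epas1, which encodes HIF-2α, fell from 63.7 ± 18.05 to 9.21 ± 14.6, a difference of -3.98 (SE 0.85, limma adjusted p = 0.00342), and edgeR did not call it. The 3 that rose were Ddit4, an inhibitor of mTORC1, Ccng2, a cyclin, and Cited2, a competitor of HIF-1α for its coactivator, named after their values were seen, with differences of 1.25, 0.65 and 0.72 (SE 0.33, 0.20 and 0.22, limma adjusted p = 0.0126, 0.0269 and 0.0290). Ddit4 was not called among the 8 libraries numbered 1 to 4. Ccng2 lost its call without wild-type library 4 or 6 or knockout library 1 or 4, and Cited2 without wild-type library 1, 2 or 4 or knockout library 3. Both also lost it with a block for the replicate number. Epas1 is a gene that endothelial cells express strongly. The markers of endothelial cells summed to 427.5 to 542 in the 6 wild-type libraries, 264 in library 8 and 165 to 355 in the knockouts, and only Tek was at 0 in every knockout library. Their part in the difference was not tested. Of the pentose phosphate pathway, a side branch that yields NADPH, 0 of 8 tested genes passed with limma, edgeR or DESeq2, and 0 had an unadjusted limma p under 0.05. Without library 8 limma called 1 of them lower, Pgd, the second dehydrogenase of the pathway, named after its value was seen (-0.44, adjusted p = 0.0253, against -0.36, 0.148 with all libraries). Of 12 tested genes that govern pyruvate entry into mitochondria, 1 fell, Pcx (pyruvate carboxylase), from 38.5 ± 19.1 to 0.111 ± 0.222, a difference of -4.99 (SE 0.60, limma adjusted p = 3.80e-05). Without library 8 it was 2, with Pdp1, a phosphatase that activates pyruvate dehydrogenase, also named after its value was seen (-3.93, limma adjusted p = 0.0101, against -3.17, 0.0810 with all libraries).

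After rAPOE injection into knockout brains, Mif was the member that passed, and it was higher than after PBS. Of 24 members tested 1 rose and 0 fell with limma, edgeR and DESeq2 alike, and 6 had an unadjusted limma p under 0.05. The background was 0.368% of 7066 genes for higher calls, 0.113% for lower calls and 0.481% for either. Hk1, Gapdh, Eno1 and Slc2a3 passed the filter only through the rAPOE group, and Pfkp, Pfkm, Pgk1, Pgam1, Eno2 and Vegfa were too low to be tested. Differences were above 0 in 18 of the 24 tested members, with a median of 0.52 against -0.01 for all genes tested. Because some members passed the filter only through the rAPOE group, nothing is read from this count or median. Single libraries moved that member median, to 0.26 without PBS library 5, 0.34 without rAPOE library 2 and 0.78 without rAPOE library 1.

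Mif lies at chr10:75859353-75860240 (GRCm38, minus strand). It was at 48.0, 72.1, 52.8, 21.1 and 35.4 in the PBS libraries and at 229, 117, 119, 149 and 194 in the rAPOE libraries. Every rAPOE library lay above every PBS library. The mean rose from 45.9 ± 19.1 (SD, n = 5) to 162 ± 48.7 (SD, n = 5), a difference of 1.85 (SE 0.39, limma adjusted p = 0.0318), and edgeR and DESeq2 called it too. The call was lost on leaving out PBS library 1 (limma adjusted p = 0.0537), 4 (0.0819) or 5 (0.0734), or rAPOE library 1 (0.112), 2 (0.0557), 4 (0.0747) or 5 (0.122). It was also lost without both libraries numbered 5, which lack Y-linked reads (1.71, limma adjusted p = 0.239), and over the alternatives its adjusted p ran from 7.53e-04 (DESeq2) to 0.239. Microglial markers moved the other way, with a summed level of 21072 to 25276 after PBS and of 10848 to 23047 after rAPOE, and 3 of these 10 markers fell (0 without both libraries numbered 5). Their part in the result for Mif was not tested.

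**Figure D4:**
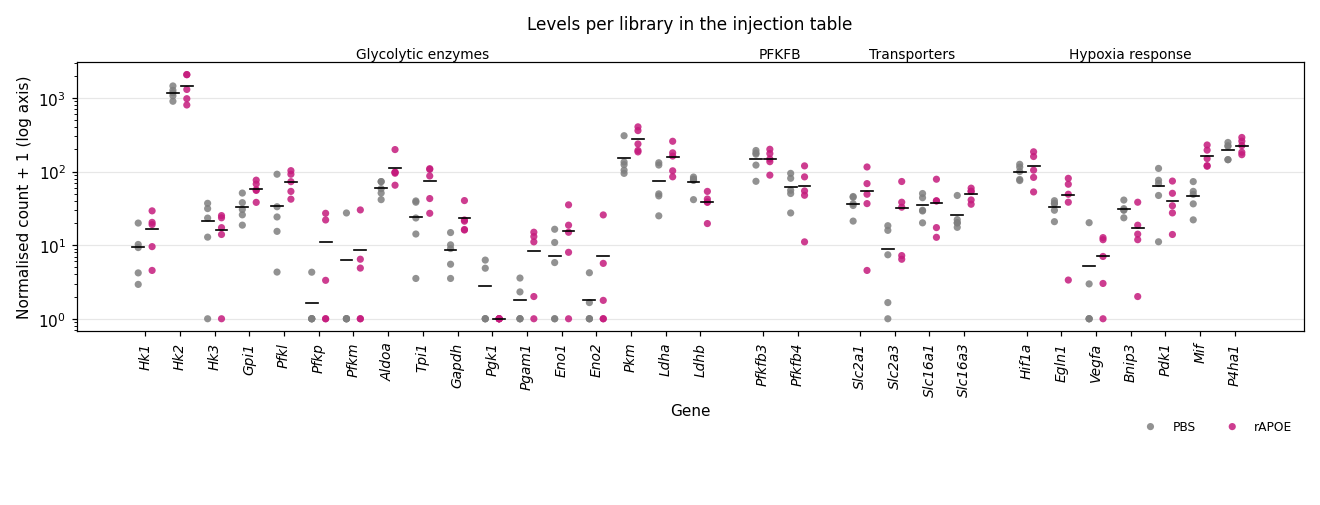
Normalised count plus 1 of each member (log axis) in every library of the injection table, by role, with grey points for the 5 PBS libraries, magenta points for the 5 rAPOE libraries and bars at the group means. Every magenta point lies above every grey point in Mif and Gapdh, and the groups overlap in all other tested members.

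No glycolytic enzyme passed with limma after rAPOE, and 10 of the 12 tested had a difference above 0, with a median of 0.90. Hk1, Gapdh and Eno1 had passed the filter only through the rAPOE group, so nothing is read from this count or median. Tpi1 was at 38.9, 2.53, 22.4, 13.2 and 37.3 in the PBS libraries and at 108, 106, 26.1, 86.1 and 42.0 in the rAPOE libraries, with overlap only through rAPOE library 3 (1.87, SE 0.69, limma adjusted p = 0.294). Pkm was at 93.5, 306, 123, 103 and 134 after PBS and at 184, 236, 193, 359 and 404 after rAPOE, where PBS library 2 reached into the rAPOE range (0.92, SE 0.34, limma adjusted p = 0.300). Gapdh did not overlap, with 9.10, 2.53, 7.999, 13.8 and 4.50 after PBS and 15.3, 39.3, 15.1, 20.2 and 20.99 after rAPOE, yet it did not pass (1.51, SE 0.86, limma adjusted p = 0.528). Mif and Gapdh were the 2 of 24 tested members whose groups separated upwards, against 1.59% of all genes, and 0 separated downwards, against 1.54%. Gapdh had passed the filter only through the rAPOE group, so nothing is read from this count.

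The lactate dehydrogenase subunits lay on opposite sides of 0. Ldha was at 131, 24.0, 122, 48.7 and 45.7 after PBS and at 257, 161, 101, 83.8 and 179 after rAPOE (1.22, SE 0.45, limma adjusted p = 0.305). Ldhb was at 40.5, 78.4, 83.2, 75.1 and 75.3 after PBS and at 37.7, 41.4, 37.1, 52.8 and 18.7 after rAPOE (-0.92, SE 0.45, limma adjusted p = 0.460). Neither passed, and both overlapped. Ldha made up 47.3% ± 20.7 (SD, n = 5) of lactate dehydrogenase reads after PBS and 78.4% ± 11.7 (SD, n = 5) after rAPOE, from 23.5% to 76.3% and from 61.4% to 90.6%, so that these shares also overlapped.

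Upper glycolysis did not pass either. Pfkl ranged from 3.31 to 91.0 after PBS and from 41.2 to 102 after rAPOE (1.66, SE 0.66, limma adjusted p = 0.352). Aldoa ranged from 40.5 to 72.1 after PBS and from 64.2 to 198 after rAPOE (0.83, SE 0.39, limma adjusted p = 0.423). Gpi1 ranged from 17.7 to 50.05 after PBS and from 37.1 to 75.4 after rAPOE (0.89, SE 0.49, limma adjusted p = 0.510). These 3 enzymes overlapped between the groups. Hk2 was the most abundant hexokinase, with 901 to 1455 after PBS and 802 to 2081 after rAPOE (0.21, SE 0.26, limma adjusted p = 0.811), and its share of hexokinase reads was 97.6% ± 0.783 (SD, n = 5) and 97.4% ± 1.65 (SD, n = 5). Hk1, Hk3 and Eno1 had differences of 0.88, -0.26 and 1.25 (SE 0.98, 1.16 and 1.26). Among the enzymes too low to test, Pgk1 was at 0 in all rAPOE libraries and at 5.27 or less after PBS.

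Regulators and transporters did not pass after rAPOE. Pfkfb3 and Pfkfb4 had differences of 0.05 and -0.20 (SE 0.34 and 0.57). Slc2a3 was at 14.9, 0, 6.3996, 0.659 and 17.4 after PBS and at 31.8, 37.3, 72.3, 5.43 and 6.22 after rAPOE (2.04, SE 1.11, limma adjusted p = 0.504). Slc16a3 was at 46.3, 19.0, 19.2, 16.5 and 21.2 after PBS and at 53.0, 58.5, 40.1, 52.8 and 35.0 after rAPOE, with overlap only through PBS library 1 (1.02, SE 0.54, limma adjusted p = 0.493). Slc2a1 and Slc16a1 stood at 0.05 and -0.10 (SE 0.71 and 0.62).

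Apart from Mif, hypoxia genes showed no difference that passed. Hif1a ranged from 74.5 to 124 after PBS and from 51.9 to 185 after rAPOE (0.14, SE 0.38, limma adjusted p = 0.931). Bnip3 was at 29.0, 30.3, 40.0, 29.0 and 22.5 after PBS and at 17.7, 13.1, 1.004, 10.9 and 37.3 after rAPOE, where only rAPOE library 5 reached the PBS values (-1.36, SE 0.82, limma adjusted p = 0.560). Egln1, Pdk1 and P4ha1 had differences of 0.01, -0.52 and 0.20 (SE 0.74, 0.63 and 0.28), and Vegfa stood at 4.23 ± 8.41 (SD, n = 5) and 6.11 ± 5.18 (SD, n = 5), too low to test.

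Of the further lists, 1 gene passed after rAPOE. Tfrc, the transferrin receptor that brings iron into cells and a known HIF target, rose from 32.3 ± 18.9 (SD, n = 5) to 131 ± 41.1 (SD, n = 5), a difference of 2.14 (SE 0.47, limma adjusted p = 0.0405). It was 1 of 20 other hypoxia genes tested. Its call was lost under 11 of 20 alternatives (adjusted p 0.00177 to 0.225), among them edgeR and leaving out PBS library 3, 4 or 5 or rAPOE library 1, 2, 4 or 5. Among 9 other glycolysis genes, 7 genes of the pentose phosphate pathway and 7 of pyruvate entry, 0 passed with limma. The unadjusted limma p was under 0.05 in 2, 0 and 0 of them, edgeR called 0 in each list and DESeq2 1, 0 and 0. Without both libraries numbered 5, 0 members and 0 genes of these lists passed with limma, and 3 members had an unadjusted p under 0.05.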

How the data were processed

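The deposited values are a signal per gene, the read count of a library divided by a library-wide factor by the authors. Per the submitters' processing notes the build was GRCm38.p3 and the tools included R 3.2.3, Picard 1.8.4, DESeq2 and HTSeq. Per the labels' protocols the libraries were QuantSeq 3′ FWD, read on a MiniSeq. Which aligner, annotation and strand setting they chose is not given in the sources used here. Both tables were normalised apart and were fitted apart, and no level is compared between them.

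In the genotype data, 22 entries with spreadsheet dates for names (0.0966% of the summed values) and 120 at 0 throughout were left out. Values were whole multiples of a step per library (100% of values whole, at a tolerance of 0.01), and reads were recovered by dividing by that step. PBS libraries held 704225 to 1347501 and rAPOE libraries 857059 to 1119059 reads. Without molecular identifiers, intervals and bounds cover counting error only.

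Values were fitted in R 4.3.3 with limma 3.58.1 (intensity trend) as log2(value + 1), for genes whose mean reached 10, at a Benjamini-Hochberg adjusted p under 0.05 over all genes of the table. Where a group was at 0, the fold is a bound at 3 reads over the group. Alternatives were other pseudocounts and filters, TMM scaling and quantile normalisation, edgeR 4.0.16 and DESeq2 1.42.0 on the recovered reads, a replicate block, and leaving out each library. The scripts were tested on simulated data. Replicates of 1 group differed by more than sampling noise in every pair. Shared 3′ ends were found with BLAST 2.17.0 in GENCODE M21 transcripts, which also gave positions, except for Aldoa, a symbol that 2 entries carry. The members, lists and tests were chosen with earlier results of these data known. Every measured member is named or counted, with up to 4 passing genes of each further list by adjusted p.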

Additional observations from a re-analysis of the deposited data

Results flagged for a closer look

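In 27 of 121 groups of 4 to 7 libraries (22.3%), the highest or lowest value of a member stood apart from the rest by Dixon's 95% criterion. For normally distributed values chance alone marks about 1 in 20 groups. A group with reads in only 1 library is always marked, so the 22.3% is not to be set against that rate. Groups of the same libraries are also not independent.

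All 7 such values in wild type belonged to library 8. It was the highest for Hk2 (1441) and P4ha1 (841), and the lowest for Aldoa (262), Pkm (316), Ldhb (222), Slc16a3 (52.4) and Egln3 (0). This library also differed from the others in choroid plexus, neuron and Y-linked reads, and their part in these values was not tested.

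In the knockout group 9 values stood apart. Knockout library 4 was the only one with reads of Pgk1 (6.21), Pgam1 (13.7), Slc2a3 (5.76) and Adm (16.8), and knockout library 1 the only one with Vegfa (21.6). Knockout library 3 was lowest for Ldha (54.5) and highest for Slc16a1 (38.9) and Egln3 (57.5), and knockout library 2 was lowest for Pkm (201).

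After PBS there were 7 such values. Library 4 was the only one with Pfkp (3.29). Library 5 was the only one with Pfkm (26.4) and was highest for Eno2 (3.22). Library 2 was highest for Pkm (306). Library 1 was lowest for Ldhb (40.5) and highest for Slc16a3 (46.3), and library 3 was highest for Vegfa (19.2). After rAPOE there were 4, namely Aldoa (198) and Eno2 (24.7) in library 1, Gapdh (39.3) in library 2 and Pfkm (29.1) in library 3.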

How the results depend on the processing

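Of 1059 values of members recomputed under the alternatives, 964 kept both their direction and their side of the threshold, 33 lost a pass, 9 gained one and 53 changed direction, in 13 results of which 0 passed after the change. The cause of these changes was not tested. The call of the Apoe loss was kept in every alternative run for it. Low genes limit the precision, since a value of 0 in a library rests on no read at all.

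In the genotype comparison the 1 member called higher became 0 with quantile normalisation, edgeR and DESeq2, and 0 to 2 on leaving out single libraries. The 11 called lower became 6 with a filter at a mean of 50, 7 with edgeR, and 10 to 14 on leaving out single libraries. Over all genes, higher calls were 920 with quantile normalisation and 402 to 791 on leaving out single libraries. Lower calls were 801 with the filter at 50, 3191 with no filter, 1027 with quantile normalisation, 1159 with edgeR and 1602 to 2378 on leaving out single libraries. The share of calls that were higher, 20.6%, became 37.9% with the filter at 50 and 47.3% with quantile normalisation. The median of all genes was -0.17 with edgeR and -0.19 with DESeq2.

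In the injection comparison the 1 member called higher became 0 without both libraries numbered 5, an alternative chosen after seeing the data, and 0 to 1 on leaving out single libraries. Over all genes, higher calls were 47 with a pseudocount of 5, 45 with quantile normalisation, 66 with DESeq2, 10 without both libraries numbered 5 and 13 to 36 on leaving out single libraries. Lower calls were 17 with a pseudocount of 5, 16 with the filter at 50, 22 with quantile normalisation, 1 with edgeR, 48 with DESeq2, 17 with the replicate block, 1 without both libraries numbered 5 and 2 to 38 on leaving out single libraries. The share of higher calls, 76.5%, was 62.8% with the filter at 50, 57.9% with DESeq2, 95.8% with edgeR and 48.6% to 92% on leaving out single libraries.

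Differences of members that changed sign, none of them passing before or after, were as follows in the genotype comparison. Hk3 was 0.010 with TMM, 0.72 with quantile normalisation, 0.17 with edgeR, 0.14 with DESeq2 and -0.41 to 0.22 on leaving out single libraries. Eno1 was 0.094 with quantile normalisation, 0.018 with edgeR and -0.51 to 0.28 on leaving out single libraries. Pdk1 was 0.060 with edgeR, 0.025 with DESeq2 and -0.75 to 0.38 on leaving out single libraries. Leaving out single libraries gave -0.36 to 0.011 for Pfkfb3, -0.048 to 0.29 for Pfkfb4 and -0.41 to 0.16 for Slc16a3. In the injection comparison it gave -1.18 to 0.60 for Hk3, -0.18 to 0.22 for Pfkfb3, -0.52 to 0.34 for Pfkfb4, -0.37 to 0.80 for Slc2a1, -0.43 to 0.22 for Slc16a1, -0.064 to 0.39 for Hif1a and -0.33 to 0.82 for Egln1. Pfkfb4 was 0.038 with edgeR and 0.042 with DESeq2, Slc16a1 was 0.12 with edgeR and 0.13 with DESeq2, and Egln1 was -0.029 with a pseudocount of 0.5. Without both libraries numbered 5, Pfkfb3 was -0.30, Slc16a1 0.22 and Egln1 -0.10.

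Libraries of the compared groups share replicate numbers, and the main fits did not use them as pairs. In the injection table, libraries 4 and 5 detected 11232 and 10025 genes after PBS and 11342 and 11026 after rAPOE. The other injection libraries detected 7601 to 8837. Whether the numbers mark pairs was not tested beyond the replicate block below. Same-numbered libraries deviated together only for numbers 4 and 5 of the injection table. The correlations of their deviations were 0.01, -0.03, 0.02 and -0.01 for numbers 1 to 4 of the genotype table and 0.02, 0.01, -0.00418, 0.19 and 0.11 for numbers 1 to 5 of the injection table, and only number 3 of the first and numbers 4 and 5 of the second had their own number as best match. With a replicate block 1 member rose and 9 fell in the genotype table, as without the block among the same 8 libraries, and 1 rose and 0 fell in the injection table. Over all genes the block gave 403 higher and 1378 lower calls, against 528 and 1530 without it in those 8 libraries, and 35 and 17 after injection. With the block the adjusted p of Slc16a1 was 0.266 and that of Gapdh 0.0793. These genes, Ddit4 and Ero1l did not pass in the 8 libraries with or without the block, Cited2 and Ccng2 did not pass with it only, and Aldoc did not pass without it only. Pfkfb4 was -0.076 in the genotype table with the block and -0.076 in the 8 libraries without it.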
